A study of Rattus norvegicus with 18 samples.

Results

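The 384 isoforms described here are full-length transcripts of the rat hippocampus whose predicted protein lacks the N-terminal signal peptide that the annotated protein of the same gene has. They were taken from the study's list of open reading frames (ORFs) with a changed N-terminus, which pairs a gene with a read and states whether the variant has a signal peptide. Of 385 listed isoforms without one, 384 matched exactly 1 of the 28268 isoforms of the expression tables and 1, of Ugt1a9, matched none. The 384 belong to 258 genes. In 325 of them (227 genes) the N-terminus is truncated, in 54 (42 genes) it diverges from the annotated one, and in 5 (5 genes) it is extended. A single member isoform was listed for 180 genes, 51 genes had 2, 14 had 3, 7 had 4, 5 had 5, and Gpr108 had 7. Each isoform is named below by its gene and the length of its read in nt, as Gabbr1 2805.

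Levels come from 12 Illumina libraries of Sprague Dawley rats that were male and 4 weeks of age by the labels, with 2 libraries in each of 6 groups and no treatment of the animals named. Hippocampal slices gave 2 libraries of whole hippocampus and, from CA1 layers cut out by hand, 2 of somata and 2 of neuropil. Whole brain gave 2 libraries each of ribosome-free, monosome and polysome RNA, which are the parts of a sucrose gradient with no ribosome, 1 ribosome or several ribosomes on the RNA. The brains were lysed in NP-40, a mild detergent, with cycloheximide, which holds ribosomes on the RNA, and nuclei and membrane debris were spun out before the gradient. No source says that the replicates came from separate animals, so p-values here measure only the spread between these libraries. Footprinting libraries were not used here.

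A signal peptide is a short hydrophobic stretch at the start of a nascent protein. It is bound by the signal recognition particle, which brings the ribosome to the endoplasmic reticulum (ER), where the chain is threaded into the lumen or the membrane and the peptide is usually cut off. Secreted proteins, lysosomal enzymes and most receptors of the cell surface enter their route this way, and a chain that starts downstream of the peptide is usually made in the cytosol. Mitochondrial proteins carry an N-terminal presequence of another kind, and the list, which rests on a prediction from sequence, holds 41 isoforms of 25 genes for mitochondrial proteins as well. The proteins themselves were not measured here.

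Values are TPM, the scaled share of a library's transcripts that RSEM estimated for an isoform. Reads that fit several isoforms of a gene are divided among them, so an isoform can be listed at 0 because its reads were given to another, and read depth is unknown. The tables pair no other isoform with a gene. The annotated isoforms of the same genes, the share of a gene's RNA that a member holds, and markers of the labelled tissues outside the list could therefore not be looked up. Differences were tested with limma on the log2 of TPM + 1, using every isoform that averaged 1 TPM or more in a table, and an isoform is called where its Benjamini-Hochberg adjusted p was under 0.05. Pearson's r between replicates, across the members, was 0.81 in hippocampus, 0.86 in somata, 0.85 in neuropil, 0.86 in ribosome-free, 0.91 in monosome and 0.93 in polysome RNA. These are correlations across isoforms on the log2 scale, which are not independent replicates.

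In whole hippocampus, 316 of the 384 members (82.3%) had a mean over 1 TPM, against 70.5% of all isoforms. The median mean level was 10.2 TPM for the members and 5.38 TPM for all isoforms. Means over 100 TPM were found for 48 members (12.5%), beside 7.03% of all isoforms. The members could come only from isoforms detected in the brain fractions and called translated, as described below. All isoforms include 3712 that were at 0 in all 6 fraction libraries. The members and all isoforms are thus not matched in level, and these differences are descriptions. At the other end, 46 members were listed at 0 in both hippocampus libraries, and 9 were at 0 in one of them while the other gave 10 TPM or more. The members summed to 19534 TPM, 1.95% of all TPM. Cpe 2376, an isoform of carboxypeptidase E, which trims neuropeptides and sorts them into dense-core vesicles, held 21.3% of that sum, and the 10 highest members held 38.2%.

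Cpe 2376 stood at 4242 and 4064 TPM in hippocampus, 4557 and 4800.1 TPM in somata and 4997 and 5625 TPM in neuropil. Its level was lower in the brain fractions, at 1187 and 1312 TPM in ribosome-free RNA, 1715 and 1669.6 TPM on monosomes and 1873 and 1945 TPM on polysomes. The fractions come from whole brain and from another table, so the step down between tissues was not tested. Gabbr1 3611, which encodes part of the GABA-B receptor, had 499.6 and 532 TPM in hippocampus, and Chgb 2740, of the vesicle protein chromogranin B, had 419.7 and 595 TPM. The others of the 10 were Rpn1 2294 (489.6 and 496 TPM), a subunit of the enzyme that adds N-linked sugars in the ER, and Sort1 3301 (270.5 and 375 TPM), the sorting receptor sortilin. Selenot 3007 (348 and 285 TPM) encodes a selenoprotein of the ER, Rcn2 1928 (307 and 325 TPM) a calcium-binding protein of the ER lumen and Glrb 3063 (292 and 281 TPM) the beta subunit of the glycine receptor. Igfbp7 937 (293 and 266 TPM) encodes a secreted protein that binds growth factors, and Ndufs3 1073 (289 and 252 TPM) a subunit of mitochondrial complex I. Neighbours in this order overlapped in their libraries, other than Cpe 2376 and Gabbr1 3611, Rpn1 2294 and Sort1 3301, and Rcn2 1928 and Glrb 3063.

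**Figure D1:**
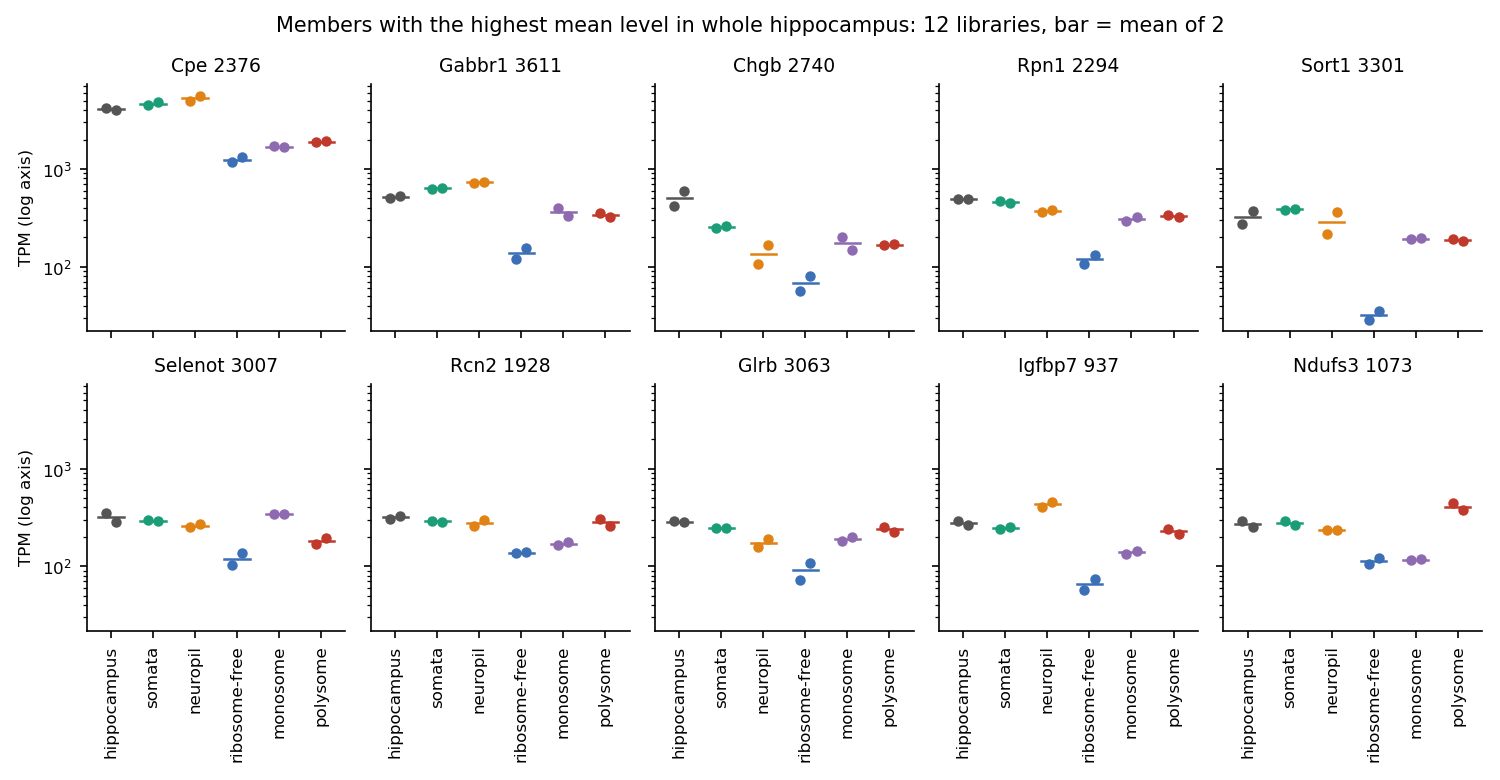
TPM (log axis) of the 10 members with the highest mean level in whole hippocampus, in each of the 12 libraries. Each panel is 1 isoform, points are the 2 libraries of a group and bars mark their mean. Cpe 2376 lies far above the other 9 in all 6 groups. In all 10, both polysome libraries lie above both ribosome-free ones, beside a median log2 fold change of 0.63 over all tested isoforms.

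The comparison of fractions asks whether RNA of these isoforms sits on ribosomes. The members cannot answer it independently, since they were chosen partly on these values. The study predicted ORFs only in isoforms that a classifier called translated, and the classifier used the levels and the ratios of these 6 fraction libraries. The counts of members below are therefore descriptions, and they are no independent evidence of a direction. All 384 members were above 0 in at least 1 fraction library, whereas 3712 of all isoforms were at 0 in all 6. Of the 384, 326 reached a mean of 1 TPM over the fraction libraries and were tested, and 58 did not.

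Against ribosome-free RNA, 128 of the 326 tested members (39.3%) were called higher in polysomes, beside 34.1% of all 19667 tested isoforms, and 30 (9.20%) were called lower, beside 11.1% of all. The median log2 fold change was 0.87 for the members and 0.63 for all tested isoforms. That general shift went down to 0.09 when libraries were quantile-normalized and to 0.12 with median ratios. Relative to it, 74 members were called higher and 48 lower with quantile normalization, beside 20.5% and 17.6% of all isoforms, and the median of the members was 0.35. All of those 74 were among the 128, and all 30 lower calls were kept. The counts also leaned on the polysome libraries: without polysome replicate 2 there were 74 higher and 14 lower calls, and without polysome replicate 1 there were 84 and 20. In 63 of the 128 higher and 11 of the 30 lower isoforms, the call held in every alternative run.

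In monosomes against ribosome-free RNA, 128 members (39.3%) were called higher, beside 32.1% of all isoforms, and 17 (5.21%) lower, beside 7.3%. The medians were 0.92 and 0.69, and with quantile normalization 78 members were higher and 29 lower, beside 16.1% and 13.7% of all. Without monosome replicate 1 the higher calls fell to 77, and without monosome replicate 2 they numbered 86. Between polysomes and monosomes, 23 members (7.06%) were higher in polysomes and 32 (9.82%) lower, beside 11.6% of all isoforms in each direction, and the medians were -0.01 and -0.02. Quantile normalization gave 19 and 32 calls, beside 10.1% and 10.9% of all. These counts moved most. Without polysome replicate 1 they were 3 and 13, without polysome replicate 2 they were 6 and 16, without monosome replicate 1 they were 7 and 13, and without monosome replicate 2 they were 11 and 12.

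The comparisons with ribosome-free RNA share its 2 libraries, so their calls are not independent of each other. Of the 326 members, 98 were called higher in both polysomes and monosomes, 30 in polysomes with no call in monosomes, and 29 in monosomes with no call in polysomes. Another 14 were called lower in both, 15 lower in polysomes with no call in monosomes, and 3 lower in monosomes with no call in polysomes. A further 1 was lower in polysomes and higher in monosomes, and 136 had no call in either. Joint counts over all tested isoforms were not computed, so these numbers show no trait of the members. Taken singly, 34.1% of all isoforms were called higher in polysomes and 32.1% in monosomes. By mean TPM, the highest fraction was the polysomes for 134 members (41.1%), the monosomes for 140 (42.9%) and ribosome-free RNA for 52 (16.0%), beside 40.8%, 39.2% and 20.0% of all tested isoforms. The 140 isoforms of the same list that gained a signal peptide passed through the same selection. Of 104 tested, 41 were called higher and 6 lower in polysomes against ribosome-free RNA, beside 34.1% and 11.1% of all isoforms. Their median was 0.99.

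**Figure D2:**
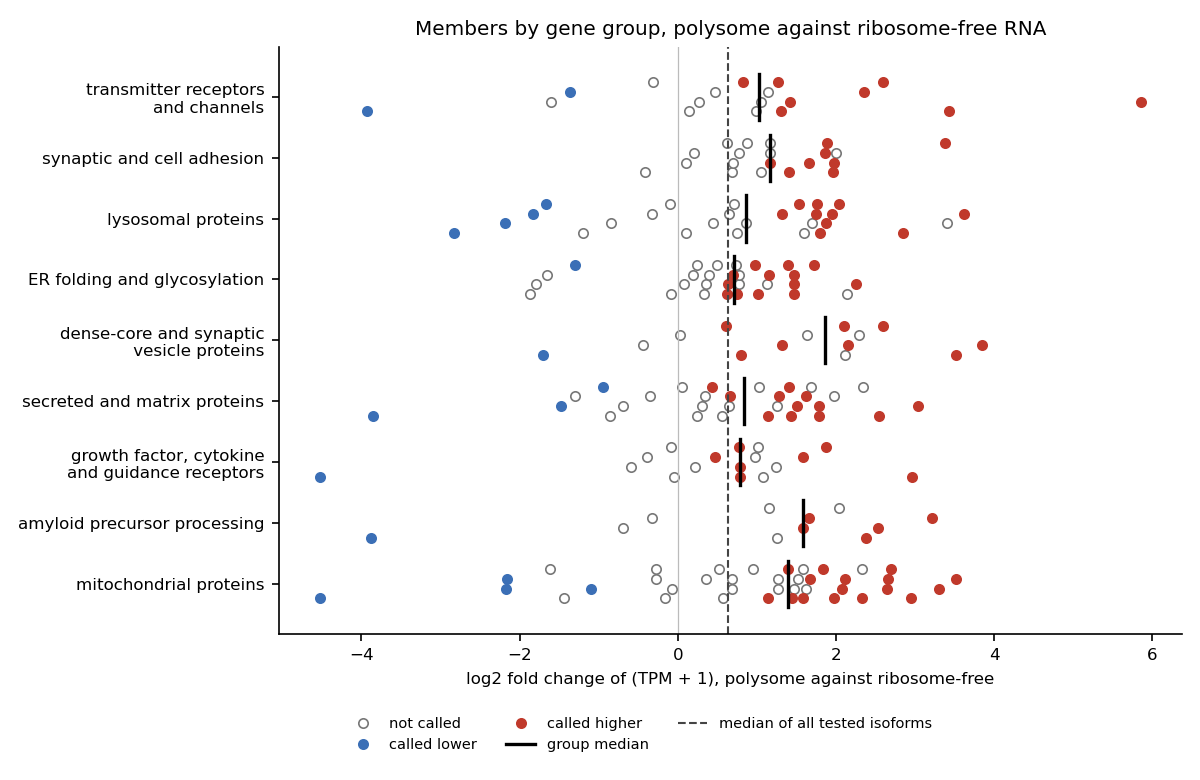
Log2 fold change of TPM + 1, polysome against ribosome-free RNA, for the tested members of each gene group. Each point is 1 isoform, filled red where called higher, filled blue where called lower and open where not called, black bars are group medians and the dashed line marks the median of all tested isoforms (0.63). Dense-core and synaptic vesicle proteins reach a median of 1.86, and each of the 8 groups with a lower call also holds higher ones.

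Receptors and channels for transmitters are made at the ER and carried to the surface, and the extracellular part that binds the transmitter lies at or near their N-terminus in most families. Of 18 tested isoforms of this group, 8 were called higher and 2 lower in polysomes against ribosome-free RNA. The median log2 fold change was 1.02, and quantile normalization gave 6 and 3 calls. Among all tested isoforms, 34.1% were called higher and 11.1% lower, and 20.5% and 17.6% with quantile normalization. These shares stand beside the counts of each gene group below. Gabbr1, the subunit of the GABA-B receptor that binds GABA, had 3 member isoforms, and all 3 were called higher. Gabbr1 2805 had 4.54 and 12.04 TPM in ribosome-free RNA, 459.9 and 392.3 TPM on monosomes and 454 and 531 TPM on polysomes. Both ribosome-bound groups lay far above the ribosome-free one and overlapped each other. The mean in polysomes was 59.4 times that in ribosome-free RNA, with a log2 fold change of 5.86 ± 0.41 (SE, adjusted p = 0.000503), the highest among the tested members. The longer Gabbr1 3611 had 119.7 and 155, 395 and 332 and 352 and 324 TPM in the 3 fractions in that order, a log2 fold change of 1.3 ± 0.16 in polysomes (adjusted p = 0.0026). The calls of Gabbr1 2805 and Gabbr1 3611 held in every alternative. Gabbr1 2418 was lower, at 0 and 1.82, 14.0 and 20.2 and 18.4 and 15.9 TPM, and its call (3.43 ± 0.55, adjusted p = 0.00573) was lost without polysome replicate 1 (adjusted p = 0.0585) or polysome replicate 2 (adjusted p = 0.0524). The 2 lower calls were Gabrg1 3538, described further on, and Grik1 3065, of a kainate receptor subunit, named after its values were seen, which had 24.01 and 17.2 TPM in ribosome-free and 0.95 and 0 TPM in polysome RNA (log2 fold change -3.94 ± 0.48, adjusted p = 0.00236).

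Glrb 3063 had 72.0 and 109 TPM in ribosome-free RNA, 179 and 199 TPM on monosomes and 254 and 223 TPM on polysomes and was called higher in polysomes (log2 fold change 1.41 ± 0.21, adjusted p = 0.00486), a call lost without polysome replicate 1 (adjusted p = 0.0523). Gabra5 2497, of a GABA-A receptor alpha subunit, did not pass, with 1.73 and 1.63 TPM in ribosome-free and 1.5 and 2.50 TPM in polysome RNA. Gria4 3959, of an AMPA receptor subunit, was called higher (log2 fold change 1.27 ± 0.19, adjusted p = 0.00472), but not with quantile normalization (adjusted p = 0.0573). Grm3, a metabotropic glutamate receptor, was near the floor, with Grm3 2515 at 0 and 0 TPM and Grm3 2753 at 3.13 and 0.70 TPM in polysomes.

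Of the 20 tested isoforms of synaptic and cell adhesion proteins, 8 were called higher in polysomes against ribosome-free RNA, beside 34.1% of all. There were 0 lower, beside 11.1%, and quantile normalization gave 8 and 1. At an unadjusted p under 0.05, 12 of them passed in either direction. Lgi1 2353, of a secreted synaptic protein that binds ADAM22, had 24.3 and 24.2 TPM in ribosome-free RNA, 88.6 and 87.7 TPM on monosomes and 99.8 and 82.9 TPM on polysomes. Nptx2 2338, of a neuronal pentraxin that gathers AMPA receptors, had 16.4 and 18.0, 43.7 and 44.6 and 68.0 and 71.9 TPM in the same order. In both, every ribosome-bound library lay above both ribosome-free ones. Their log2 fold changes in polysomes were 1.86 ± 0.13 (adjusted p = 0.00048) and 1.96 ± 0.12 (adjusted p = 0.000385). Bsg 1619, of basigin, a membrane protein of vessels and neurons, rose to 329 and 329 TPM from 81.5 and 96.0 TPM (log2 fold change 1.88 ± 0.11, adjusted p = 0.000322). Cldn5 1346, of the tight junction protein claudin 5, had 35.0 and 43.5 TPM in ribosome-free and 101 and 109 TPM in polysome RNA (log2 fold change 1.4 ± 0.14), and Igsf21 1313, of a synaptic adhesion protein, had 22.8 and 24.2 and 72.4 and 81.0 TPM (log2 fold change 1.66 ± 0.14). The calls of these 5 isoforms held in every alternative. Slitrk1 3223, of a neuronal surface protein, had 0 and 0.76 and 1.48 and 2.07 TPM and did not pass (adjusted p = 0.169).

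Proteins of dense-core and synaptic vesicles had the highest group median in polysomes against ribosome-free RNA, 1.86 over 14 tested isoforms. Of these, 8 were called higher and 1 lower (5 and 1 with quantile normalization), beside 34.1% and 11.1% of all isoforms. Ptprn and Ptprn2 encode IA-2 and phogrin, membrane proteins of these vesicles related to tyrosine phosphatases. Ptprn 3540 had 45.4 and 51.8 TPM in ribosome-free RNA, 250.2 and 236 TPM on monosomes and 285 and 311 TPM on polysomes. Ptprn2 3237 had 17.6 and 10.99, 172 and 123 and 173 and 167 TPM in that order. In both, the ribosome-bound libraries lay well above the ribosome-free ones, by 6.13 and 11.9 times for the polysome means. Their log2 fold changes were 2.59 ± 0.11 (adjusted p = 0.000226) and 3.51 ± 0.27 (adjusted p = 0.000603), and both calls held in every alternative. Chgb 2740 went from 56.0 and 80.8 TPM to 166 and 171 TPM (log2 fold change 1.31 ± 0.23, adjusted p = 0.0079), a call lost with quantile normalization (adjusted p = 0.0724) and without polysome replicate 1 (adjusted p = 0.0637) or polysome replicate 2 (adjusted p = 0.0694). Cpe 2376 was called higher by 0.61 ± 0.09 (adjusted p = 0.00425), about the general shift of 0.63, and with median ratios its direction turned, at -0.05.

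For secreted and matrix proteins, 12 of 30 tested isoforms were called higher in polysomes against ribosome-free RNA, beside 34.1% of all. Another 3 were lower, beside 11.1%, and quantile normalization gave 5 and 5. Bcan 2605, of brevican, a proteoglycan of the perineuronal matrix, had 31.5 and 55.4 TPM in ribosome-free RNA, 195 and 215 TPM on monosomes and 233 and 263 TPM on polysomes (log2 fold change in polysomes 2.54 ± 0.27, adjusted p = 0.00154). Igfbp7 937 had 57.3 and 74.5, 133 and 145 and 240.1 and 216 TPM (log2 fold change 1.78 ± 0.15, adjusted p = 0.000851). The short isoforms of a pair of secreted neurotrophic factors were lower in polysomes. Metrn 916, of meteorin, stood at 1376 and 1094 TPM in ribosome-free RNA, 423 and 508 TPM on monosomes and 74.8 and 94.8 TPM on polysomes. Its level went down at each step with no overlap between fractions, and the ribosome-free mean was 14.6 times the polysome mean. The log2 fold change was -3.85 ± 0.18 in polysomes (adjusted p = 0.000258) and -1.4 ± 0.18 in monosomes (adjusted p = 0.00438). Nenf 731, of neudesin, had 492 and 575, 592 and 658 and 182 and 199.8 TPM, so that its monosome libraries were the highest. It was lower in polysomes than in ribosome-free RNA by -1.47 ± 0.12 on the log2 scale (adjusted p = 0.000681), and than in monosomes by -1.71 ± 0.12 (adjusted p = 0.00178). The calls of these 4 isoforms held in every alternative. The third lower isoform, named after its values were seen, was Dcn 1727, of the matrix proteoglycan decorin (log2 fold change -0.95 ± 0.28, adjusted p = 0.0413), a call lost without any 1 of the 6 libraries. Apoe 1493, of the main lipid carrier of the brain, was scarce, with 3.69 and 12.9 TPM in ribosome-free and 17.4 and 19.2 TPM in polysome RNA, and did not pass (adjusted p = 0.137).

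The receptors for growth factors, cytokines and guidance cues are a broad group that also holds the semaphorins Sema4a and Sema7a. From its 17 tested isoforms, 7 were called higher in polysomes against ribosome-free RNA, beside 34.1% of all. There was 1 lower call, beside 11.1%, and quantile normalization gave 2 and 1. Fgfr3 3491, of a receptor for fibroblast growth factors, had 28.1 and 30.2 TPM in ribosome-free and 93.5 and 84.5 TPM in polysome RNA (log2 fold change 1.58 ± 0.11, adjusted p = 0.000512). Sema7a 2755, of a membrane-anchored semaphorin, had 36.3 and 43.6 and 144 and 154 TPM (log2 fold change 1.88 ± 0.16, adjusted p = 0.000877). The 1 lower call was Ntrk2 1825, an isoform of the gene for TrkB, the receptor of brain-derived neurotrophic factor. It had 127 and 108 TPM in ribosome-free RNA, 3.4 and 11.6 TPM on monosomes and 2.72 and 6.14 TPM on polysomes, so that both ribosome-free libraries lay far above the other 4. Its log2 fold change was -4.52 ± 0.58 in polysomes (adjusted p = 0.00284) and -3.99 ± 0.58 in monosomes (adjusted p = 0.00599). The calls of all 3 isoforms held in every alternative. Csf1r 2843, of the microglial receptor for colony-stimulating factor 1, did not reach a mean of 1 TPM in either table.

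Lysosomal enzymes are tagged in the Golgi after entering the ER. Of their 27 tested isoforms, 10 were called higher in polysomes against ribosome-free RNA, beside 34.1% of all. Another 4 were lower, beside 11.1%, and quantile normalization gave 5 and 5. Both member isoforms of Ctsd, the aspartic protease cathepsin D, were among the higher ones. Ctsd 1925 had 64.2 and 75.4 TPM in ribosome-free and 199.7 and 207 TPM in polysome RNA, and Ctsd 2045 had 20.9 and 22.9 and 86.6 and 66.3 TPM. The log2 fold changes were 1.53 ± 0.12 (adjusted p = 0.00064) and 1.75 ± 0.26 (adjusted p = 0.00474). Smpd1 3526, of acid sphingomyelinase, went from 24.2 and 26.1 TPM to 93.3 and 96.0 TPM (log2 fold change 1.87 ± 0.11, adjusted p = 0.000327). Plbd2 1813, of a phospholipase B-like protein of the lysosome, went from 22.5 and 27.5 TPM to 101 and 110.1 TPM (log2 fold change 2.04 ± 0.16, adjusted p = 0.000613). In all 4, the polysome libraries lay above the ribosome-free ones and the call held in every alternative. The 4 lower isoforms, named after their values were seen, were Asah1 2443, of acid ceramidase, Aga 2416, of aspartylglucosaminidase, Prcp 2471, of a lysosomal carboxypeptidase, and Lipa 3024, of lysosomal acid lipase. Lipa 3024 had 6.38 and 5.82 TPM in ribosome-free RNA, 0.73 and 0 TPM on monosomes and 0 and 0 TPM on polysomes (adjusted p = 0.00614 in polysomes). The log2 fold changes of the other 3 were -1.67, -1.83 and -2.19 in that order. These 3 calls were not firm. That of Asah1 2443 was lost without polysome replicate 1 (adjusted p = 0.11), polysome replicate 2 (adjusted p = 0.0928), ribosome-free replicate 1 (adjusted p = 0.0668) or ribosome-free replicate 2 (adjusted p = 0.0623), that of Aga 2416 without polysome replicate 2 (adjusted p = 0.0517), and that of Prcp 2471 without polysome replicate 2 (adjusted p = 0.054) or ribosome-free replicate 1 (adjusted p = 0.0619).

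Proteins of ER folding and glycosylation gave 13 higher calls and 1 lower call among 30 tested isoforms, beside 34.1% and 11.1% of all. With quantile normalization they gave 5 and 3. Rpn1 2294 had 107 and 132 TPM in ribosome-free RNA, 297 and 324 TPM on monosomes and 338 and 323 TPM on polysomes (log2 fold change in polysomes 1.47 ± 0.13, adjusted p = 0.000857). Selenot 1867 peaked in monosomes, at 43.1 and 41.9, 397 and 395 and 198 and 215 TPM in the same order. Its fractions did not overlap. It was higher in monosomes than in ribosome-free RNA by 3.19 ± 0.09 on the log2 scale (adjusted p = 0.000205) and lower in polysomes than in monosomes by -0.94 ± 0.09 (adjusted p = 0.00301). The 1 lower isoform in polysomes was Txndc12 1276, of a thioredoxin-like protein of the ER, with 61.0 and 71.7, 20.5 and 14.7 and 28.6 and 24.2 TPM. Its log2 fold change was -1.3 ± 0.21 in polysomes (adjusted p = 0.00607) and -1.87 ± 0.21 in monosomes (adjusted p = 0.00283). The former call was lost without polysome replicate 2 (adjusted p = 0.0537).

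The group linked here to the amyloid precursor and its processing holds App, Ncstn, Adam9, Apoe, Ide and Sort1. It had 5 higher calls and 1 lower call among 11 tested isoforms, beside 34.1% and 11.1% of all. With quantile normalization it had 4 and 1. Both isoforms of Sort1 were higher. Sort1 3301 had 28.5 and 35.4 TPM in ribosome-free RNA, 191 and 197 TPM on monosomes and 193 and 183 TPM on polysomes, and Sort1 3349 had 15.8 and 27.0, 112 and 109 and 109 and 115 TPM. In each, the monosome and polysome levels were alike and the ribosome-free ones several times lower. The log2 fold changes in polysomes were 2.53 ± 0.13 (adjusted p = 0.000276) and 2.38 ± 0.25 (adjusted p = 0.0015). Ncstn, of nicastrin, the gamma-secretase subunit with the large ectodomain, had 5 member isoforms. Ncstn 2683 was listed at 0 and 0 TPM in ribosome-free RNA and had 8.09 and 17.1 TPM in monosomes and 11.3 and 5.96 TPM in polysomes. It was listed at 0 and 0 TPM in hippocampus. Ncstn 2999 had 6.60 and 6.20, 18.4 and 15.8 and 22.0 and 20.4 TPM (log2 fold change 1.58 ± 0.19, adjusted p = 0.00212). Ncstn 2480, Ncstn 3100 and Ncstn 3158 did not pass, with adjusted p of 0.675, 0.0561 and 0.0652. The fifth higher isoform and the lower one were Ide 6902, of insulin-degrading enzyme, and Adam9 3578, of a membrane metalloprotease, both named after their values were seen. Ide 6902 had 0 and 0.96 TPM in ribosome-free and 3.44 and 3.43 TPM in polysome RNA, and its call (adjusted p = 0.0355) was lost with quantile normalization (adjusted p = 0.129) and without monosome replicate 1 (adjusted p = 0.0652), monosome replicate 2 (adjusted p = 0.066), polysome replicate 1 (adjusted p = 0.132), polysome replicate 2 (adjusted p = 0.132) or ribosome-free replicate 1 (adjusted p = 0.0595). Adam9 3578 had 15.2 and 22.3 TPM in ribosome-free RNA, 7.16 and 3.74 TPM on monosomes and 0 and 0.73 TPM on polysomes (log2 fold change in polysomes -3.88 ± 0.48, adjusted p = 0.0024). App 2671, of the amyloid precursor protein, had 37.4 and 18.1 TPM in ribosome-free RNA, 27.9 and 31.3 TPM on monosomes and 25.7 and 16.6 TPM on polysomes, and these overlapped (log2 fold change in polysomes -0.33 ± 0.39, adjusted p = 0.538).

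Mitochondrial proteins had 16 higher and 4 lower calls among 39 tested isoforms in polysomes against ribosome-free RNA, beside 34.1% and 11.1% of all. With quantile normalization they had 5 and 4. Polysomes against monosomes share the polysome libraries with that comparison, and the test takes its spread from all 6 fraction libraries. There, mitochondrial proteins gave 6 of the 23 higher calls of all members and 1 lower call, with a median of 0.64. These are 6 of 39 tested isoforms, beside 11.6% of all isoforms called higher, and the 23 went down to 3 without polysome replicate 1. Ndufs3 1073 had 106 and 120.4 TPM in ribosome-free RNA, 115 and 118 TPM on monosomes and 443 and 373 TPM on polysomes. Nudt9 1308, of an ADP-ribose hydrolase, had 39.9 and 40.6, 64.1 and 48.4 and 185 and 170.1 TPM. In both, the polysome libraries were the highest of the 6 and the monosome ones were near the ribosome-free ones. The log2 fold changes of polysomes against monosomes were 1.79 ± 0.12 (adjusted p = 0.00178) and 1.65 ± 0.16 (adjusted p = 0.00311), and both held in every alternative. Ckmt1 1099, of mitochondrial creatine kinase, had 122 and 152, 63.0 and 93.2 and 209 and 197 TPM in the 3 fractions. It was higher in polysomes than in monosomes by 1.39 ± 0.22 (adjusted p = 0.0115), a call lost without polysome replicate 1 (adjusted p = 0.0996) or polysome replicate 2 (adjusted p = 0.085). Hars2 3086, of the mitochondrial histidyl-tRNA synthetase, was found mainly in ribosome-free RNA. It had 34.1 and 45.6 TPM there, was listed at 0 and 0 TPM in monosomes and 0 and 2.11 TPM in polysomes, and was called lower in polysomes (log2 fold change -4.52 ± 0.61, adjusted p = 0.00334). The other 3 lower isoforms were Ngrn 1300 (-1.10), of neugrin, and, named after their values were seen, Nnt 3571, of the nicotinamide nucleotide transhydrogenase, listed at 0 and 0 TPM in polysomes against 5.05 and 2.30 TPM in the ribosome-free fraction, and Clpx 2504 (-2.18), of a protease subunit. Their calls were lost without 1 library, that of Ngrn 1300 without polysome replicate 1 (adjusted p = 0.0703) or ribosome-free replicate 2 (adjusted p = 0.0741), that of Nnt 3571 (adjusted p = 0.0136 with all) without polysome replicate 1 (adjusted p = 0.065) or polysome replicate 2 (adjusted p = 0.065), and that of Clpx 2504 without polysome replicate 2 (adjusted p = 0.0542). Nnt 3571 was also the 1 lower call against monosomes (adjusted p = 0.0156), which was lost without monosome replicate 1 (adjusted p = 0.0748), monosome replicate 2 (adjusted p = 0.0818), polysome replicate 1 (adjusted p = 0.0865) or polysome replicate 2 (adjusted p = 0.0818).

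Other members peaked in monosomes as well. Kifc2, a kinesin motor gene, had 2 member isoforms, and both were highest in monosomes. Kifc2 3514 had 49.5 and 75.0 TPM in ribosome-free RNA, 401 and 343 TPM on monosomes and 84.6 and 98.7 TPM on polysomes, and Kifc2 3297 had 80.2 and 67.5, 209.98 and 260.5 and 53.5 and 70.3 TPM. Monosome libraries lay above all others in both. Polysomes were lower than monosomes by -2.01 ± 0.22 (adjusted p = 0.00458) and -1.91 ± 0.19 (adjusted p = 0.00342) on the log2 scale, the former call being lost without polysome replicate 1 (adjusted p = 0.0582). Ramp1 983, of a partner of the calcitonin receptor-like receptor and counted above among the receptors for growth factors, cytokines and guidance cues, had 119 and 116, 470.4 and 468 and 151 and 177 TPM, with -1.51 ± 0.11 for polysomes against monosomes (adjusted p = 0.00181) and 1.99 ± 0.11 for monosomes against ribosome-free RNA (adjusted p = 0.000678). Cryl1 1383, of a crystallin-like dehydrogenase, had the opposite order, with 7.96 and 9.90 TPM in monosomes and 32.6 and 27.6 TPM in polysomes (log2 fold change 1.65 ± 0.22, adjusted p = 0.00749), lost without polysome replicate 1 (adjusted p = 0.0687) or polysome replicate 2 (adjusted p = 0.0501).

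**Figure D3:**
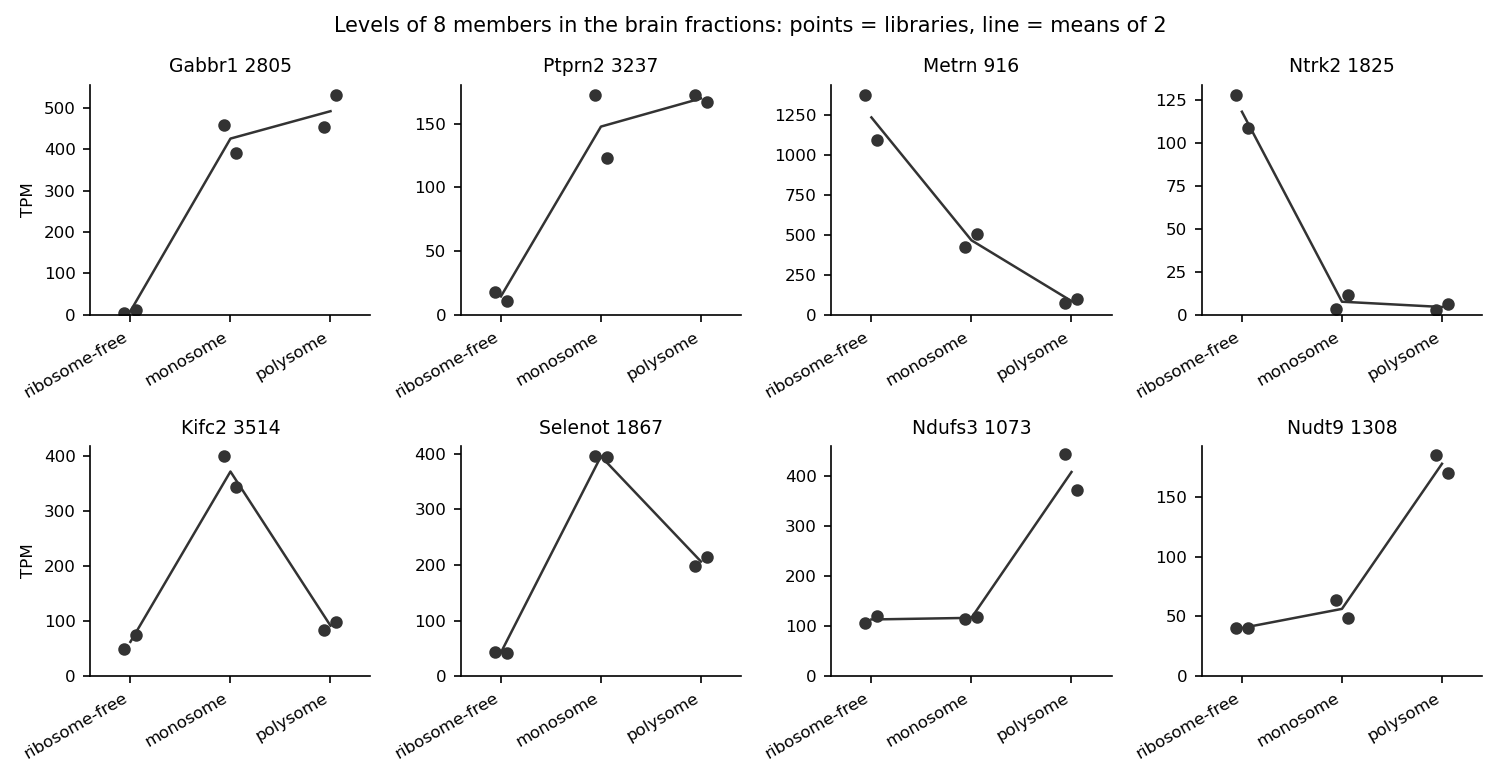
TPM in the ribosome-free, monosome and polysome libraries for 8 members with different profiles (linear axis from 0, a scale of its own in each panel). Points are libraries and the line joins the group means. Gabbr1 2805 and Ptprn2 3237 are low only in ribosome-free RNA, Metrn 916 and Ntrk2 1825 are highest there, Kifc2 3514 and Selenot 1867 peak in monosomes, and Ndufs3 1073 and Nudt9 1308 are highest in polysomes.

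Isoforms of 1 gene could differ. Of 62 genes with at least 2 tested members, 8 had both a higher and a lower call in polysomes against ribosome-free RNA (Aga, Gabrg1, Gnptg, Gpr108, Grik1, Ngrn, Nnt and Ptprn2). With quantile normalization 4 of them did (Gabrg1, Gnptg, Gpr108 and Ptprn2), and the same 4 did with median ratios. Such isoforms share reads, and how RSEM divided them between isoforms was not tested. In 6 genes all tested members were called higher, in 2 all were called lower, and in 25 some were higher and none lower. Among all tested isoforms, 34.1% were called higher and 11.1% lower. How often isoforms of different genes have opposite calls was not computed. These counts of genes are therefore descriptions, and whether they exceed what the general shares give was not tested. Of Gpr108, a multi-pass membrane protein of the Golgi, 2 of the 7 isoforms were tested. Gpr108 2109 was listed at 0 and 0 TPM in ribosome-free RNA and had 13.3 and 3.61 TPM in monosomes and 9.89 and 13.4 TPM in polysomes. Gpr108 2697 had 16.5 and 18.0, 2.87 and 1.90 and 1.47 and 0.28 TPM. The order of fractions was opposite, and in neither did the ribosome-free and polysome libraries overlap. Both passed in polysomes against ribosome-free RNA, Gpr108 2109 with an adjusted p of 0.00659 and Gpr108 2697 with a log2 fold change of -3.36 ± 0.44 (adjusted p = 0.00297), and the former call was lost without polysome replicate 2 (adjusted p = 0.0622).

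In Ptprn2, the abundant Ptprn2 3237 described above was higher in polysomes, whereas Ptprn2 3043 had 56.6 and 73.3 TPM in ribosome-free RNA, 53.9 and 91.8 TPM on monosomes and 12.4 and 28.7 TPM on polysomes. Its lower call (-1.71 ± 0.46, adjusted p = 0.0315) was lost without monosome replicate 1 (adjusted p = 0.0557), monosome replicate 2 (adjusted p = 0.0564), polysome replicate 1 (adjusted p = 0.129), ribosome-free replicate 1 (adjusted p = 0.105) or ribosome-free replicate 2 (adjusted p = 0.16). In Gnptg, a subunit of the enzyme that tags lysosomal proteins, Gnptg 1287 was listed at 0 and 0 TPM in ribosome-free RNA and had 8.31 and 11.7 TPM in polysomes (adjusted p = 0.00192). Gnptg 1315, whose read is only a little longer, had 81.1 and 44.8 TPM in ribosome-free RNA, 119.8 and 117 TPM on monosomes and 31.4 and 31.3 TPM on polysomes. It was lower in polysomes than in ribosome-free RNA (log2 fold change -0.92 ± 0.28, adjusted p = 0.0464), a call lost without monosome replicate 1 (adjusted p = 0.102), monosome replicate 2 (adjusted p = 0.103), polysome replicate 1 (adjusted p = 0.183) or polysome replicate 2 (adjusted p = 0.187). Gabrg1 3538, of a GABA-A gamma subunit, had 21.4 and 20.0, 7.94 and 4.94 and 7.19 and 7.66 TPM and was lower in monosomes than in ribosome-free RNA (-1.57 ± 0.27, adjusted p = 0.00991). Its lower call in polysomes (-1.36 ± 0.27, adjusted p = 0.0121) was lost without polysome replicate 1 (adjusted p = 0.0743), polysome replicate 2 (adjusted p = 0.067) or ribosome-free replicate 1 (adjusted p = 0.0574). Gabrg1 7522, the longest member and chosen here after its values were seen, was listed at 0 and 0 TPM in ribosome-free RNA and had 4.91 and 5.30 TPM in monosomes and 2 and 7.76 TPM in polysomes. Its higher call in polysomes (adjusted p = 0.0263) was lost without monosome replicate 1 (adjusted p = 0.0614), monosome replicate 2 (adjusted p = 0.0617), polysome replicate 2 (adjusted p = 0.0516), ribosome-free replicate 1 (adjusted p = 0.0952) or ribosome-free replicate 2 (adjusted p = 0.0967).

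**Figure D4:**
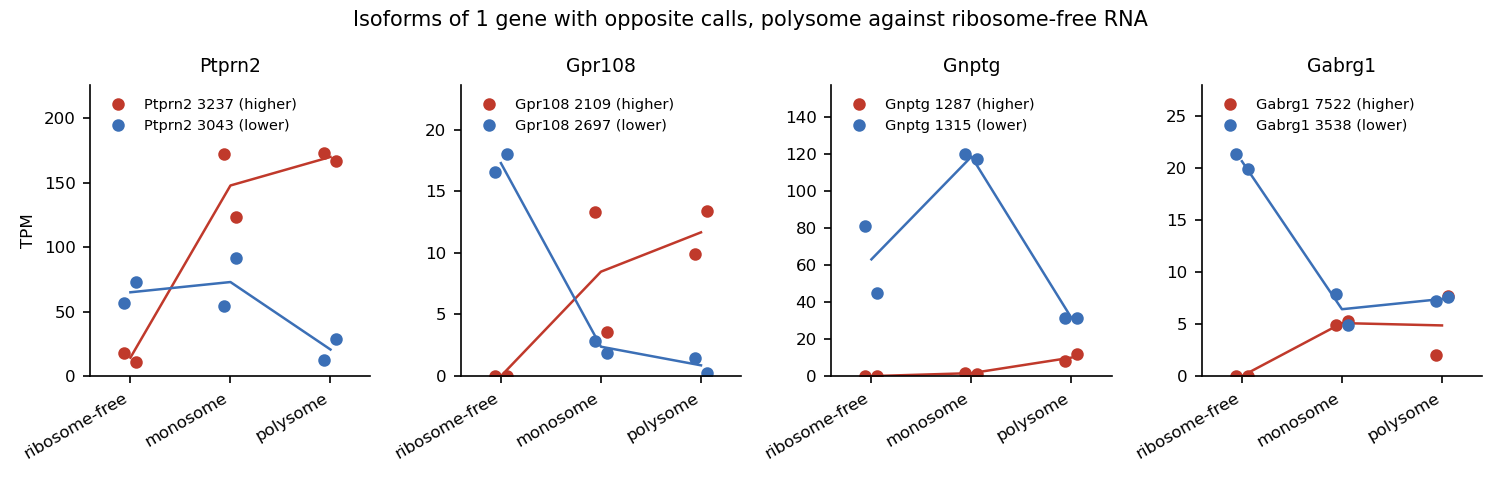
TPM (linear axis from 0) in ribosome-free, monosome and polysome libraries for the pair of member isoforms of Ptprn2, Gpr108, Gnptg and Gabrg1 with opposite calls in polysomes against ribosome-free RNA. Points are libraries and lines join group means, red for the isoform called higher and blue for the one called lower. In Gpr108, Gnptg and Gabrg1 the red isoform is listed at 0 in both ribosome-free libraries while the blue one is present there.

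By kind of N-terminus, 21 of 50 tested divergent isoforms were called higher and 3 lower in polysomes against ribosome-free RNA (median 0.93). From 271 truncated ones, 106 were higher and 27 lower (median 0.87). Both stand beside 34.1% higher and 11.1% lower among all tested isoforms. Of the 5 extended isoforms 1, Apmap 2295, named after its values were seen, was called higher, and their median was -0.10. The median read length was 2414 nt for members (731 to 7522 nt) and 2235 nt for all isoforms. Between polysomes and monosomes, the log2 fold change of members went down with read length (Spearman's rho -0.20 over 326 members, 0.01 over all 19667 tested isoforms), given as a description. Among all tested isoforms of any length, 11.6% were called in each direction, and the shares called by length were not computed. The counts of calls in this comparison moved most between runs, as given above, so those by length are descriptions. Of 69 tested members with reads under 1500 nt, 15 were higher and 10 lower in polysomes. Their median was 0.47, beside -0.15 for all isoforms of that length. Of 117 members from 1500 to under 2500 nt, 7 were higher and 9 lower (median -0.01, beside 0.06 for all). From 2500 to under 3500 nt, 1 of 98 was higher (Rpn2 2712, named after its values were seen) and 8 were lower (median -0.16, beside -0.02), and of 42 longer ones 0 were higher and 5 lower (median -0.04, beside -0.11) with limma, 1 being higher at an unadjusted p under 0.05.

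Neuropil holds mainly dendrites and axons of CA1, and somata mainly the cell bodies of the pyramidal cells. Isoforms of glial and vascular genes were found in both layers. None of the 329 tested members passed in neuropil against somata with limma, nor did any of the 20393 tested isoforms (lowest adjusted p over all 0.179). The paper compared only neuronal genes with several isoforms and reports some isoforms as significantly enriched in each layer. The test here was run over all isoforms, and its result was not compared with theirs. At an unadjusted p under 0.05, 41 members (12.5%) were higher in neuropil and 29 (8.81%) lower, beside 7.57% and 7.26% of all tested isoforms. The median log2 fold change was 0.06 for the members and 0.01 for all. With both libraries of one layer above both of the other, 95 members (28.9%) were higher in neuropil, beside 22.8% of all, and 82 (24.9%) lower, beside 22.1%. These counts are descriptions without a call. Only when a pseudocount of 0.1 was joined to a constant prior variance were there calls, 205 higher and 258 lower of the 20393 isoforms. Among the members, 3 were higher, of Armc5, Tnfrsf19 and Uxs1, named after their values were seen, and 6 lower. In such bulk samples, fewer cells of a type and less RNA per cell cannot be told apart.

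By gene group, these counts are again given without a call, beside 22.8% of all tested isoforms higher without overlap and 22.1% lower. Several groups lay near those shares. Of receptors for growth factors, cytokines and guidance cues, 11 of 21 tested isoforms were higher in neuropil without overlap and 0 lower (median 0.58), and of secreted and matrix proteins 18 of 31 were higher and 7 lower (median 0.71). Dense-core and synaptic vesicle proteins had 3 of 15 higher and 6 lower (median -0.19), and transmitter receptors and channels 5 of 17 higher and 7 lower (median -0.07). Adhesion proteins had 6 of 20 and 7, lysosomal proteins 7 of 25 and 4, and ER proteins 5 of 28 and 6. Genes linked to the amyloid precursor had 2 of 10 and 2, and mitochondrial proteins 9 of 38 and 12. The same counts follow for isoforms of glial and vascular genes, of which none passed the test. Of the members that mark astrocytes, 5 of 7 tested were higher in neuropil without overlap and 0 lower, and their summed level was 310 to 332 TPM in somata and 482 to 585 TPM in neuropil. For endothelium 3 of 5 were higher and 0 lower (217 to 219.7 against 382 to 384 TPM), for the oligodendrocyte lineage 5 of 7 were higher and 1 lower (436 to 505 against 733 to 865 TPM), and for microglia 1 of 4 was higher and 0 lower (8.21 to 11.4 against 11.7 to 18.2 TPM). The markers were Apoe, Fgfr3, Gabrg1, Mfge8 and Timp4 for astrocytes and Tie1, Eng, Cldn5, Ramp2 and Vcam1 for endothelium. Apod, Tf, Gsn, Gpr37 and Bcan stood for the oligodendrocyte lineage, and Csf1r, Tlr2, Il10ra, Cd300a and Siglec5 for microglia. Bcan 2605 alone gave 265 and 334 TPM of the oligodendrocyte sum in somata and 464 and 601 TPM in neuropil. Which cells hold it was not tested. Several genes stand in both a marker list and a gene group, and the part of these cell types in the group counts was not tested.

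Single isoforms are given by their values. Metrn 916 had 133 and 154 TPM in somata and 305 and 316 TPM in neuropil (log2 fold change 1.11 ± 0.13, adjusted p = 0.179). Slc27a1 2674, of a fatty acid transporter, had 0 and 0.29 TPM in somata and 11.6 and 24.1 TPM in neuropil (log2 fold change 3.97 ± 0.70, adjusted p = 0.189). Gsn 5534, of the actin-severing protein gelsolin, had 8.84 and 10.3 and 48.3 and 35.2 TPM (log2 fold change 2.0 ± 0.30, adjusted p = 0.179). In these 3 both neuropil libraries lay above both somata libraries. Bcan 2605 had 265 and 334 TPM in somata and 464 and 601 TPM in neuropil, and Fgfr3 3491 had 70.4 and 77.7 and 145 and 158 TPM. Kifc2 3514 had 155 and 168 TPM in somata and 253 and 243 TPM in neuropil. Its level was unequal between the hippocampus replicates, at 38.1 and 3.22 TPM.

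In the other direction, Lypd1 1603, of a GPI-anchored protein that binds nicotinic receptors, had 23.4 and 19.1 TPM in somata and was listed at 0 in both neuropil and both hippocampus libraries. It was also at 0 in ribosome-free RNA, with 0 and 3.55 TPM in monosomes and 28.8 and 35.7 TPM in polysomes. Gabra5 2497 had 13.3 and 24.1 TPM in somata and 7.81 and 0 TPM in neuropil, and Pus1 1717, of a pseudouridine synthase, had 20.8 and 23.99 and 16.9 and 0 TPM. In both, 1 of the neuropil libraries was listed at 0. Several neuronal genes had values above 0 in all 4 libraries. Chgb 2740 had 251 and 262 TPM in somata and 106 and 167 TPM in neuropil (log2 fold change -0.94 ± 0.25, adjusted p = 0.249). Lgi1 2353 had 169.7 and 163 and 82.1 and 116 TPM, and Ptprn2 3237 had 176 and 195 and 85.5 and 131 TPM. Their neuropil libraries lay below both somata libraries, and none passed. Gabbr1 2805 (353 and 243 TPM in somata and 381 and 331 TPM in neuropil) and App 2671 (17.6 and 13.1 and 40.8 and 11.4 TPM) overlapped between the layers.

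**Figure D5:**
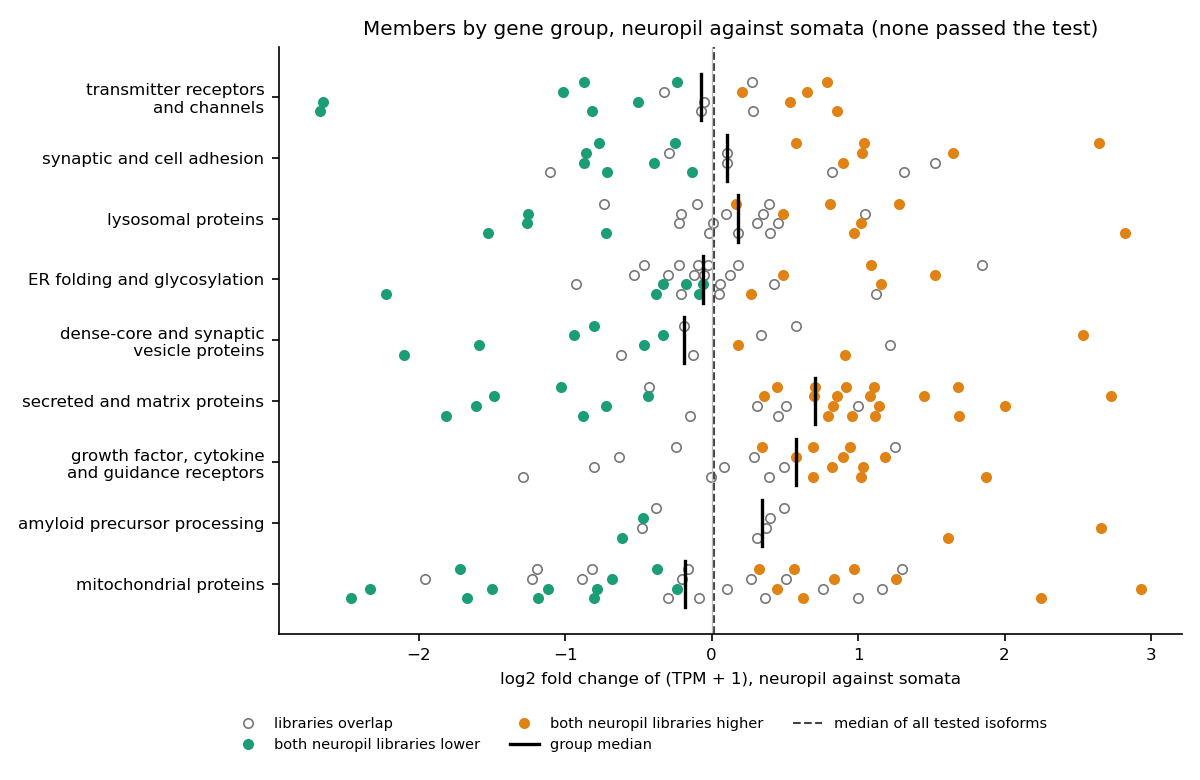
Log2 fold change of TPM + 1, neuropil against somata, for the tested members of each gene group. Each point is 1 isoform, filled orange where both neuropil libraries lay above both somata libraries, filled green where both lay below and open where they overlapped, black bars are group medians, and none passed the test. Receptors for growth factors, cytokines and guidance cues have 11 orange and 0 green points of 21, beside 22.8% and 22.1% of all tested isoforms.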

How the data were processed

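The members and gene lists were chosen with earlier results of these data known. The TPM were deposited by the authors, who removed adapters with flexbar and ran RSEM with Bowtie 2 on a reference of 28268 full-length transcripts; the versions of flexbar and RSEM are not given in the sources used here. The labels also name TopHat2 and the rn6 build. The 3 tables (hippocampus, both compartments, fractions) hold TPM to 2 decimals, with replicates not pooled. The labels describe polyA RNA, but a total RNA kit is named in the methods for the fractions, and hippocampus reads are given as single-end beside RSEM arguments for pairs. Depth is unknown, so no counting interval was computed. Members were matched by read identifier.

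Every isoform that averaged 1 TPM or more in a table entered the limma test (version 3.58.1, R 4.3.3; lmFit, eBayes with a trend) on log2(TPM + 1), two-sided, over 4 compartment or 6 fraction libraries, with Benjamini-Hochberg adjustment over all tested isoforms. A fold change on this scale understates that of low isoforms. Counts and plots were made with pandas 2.3.3, numpy 2.4.6 and matplotlib 3.10.9 (Python 3.11.15). The test was tested on simulated data. Quantile normalization, median ratios, other pseudocounts, filters and prior variances, the replicate number as a term, and leaving out each library were tried.

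Named isoforms were the 10 highest in hippocampus, the 5 highest and 5 lowest called members of each fraction comparison that averaged 10 TPM or more without overlap, the 4 highest and 4 lowest of neuropil against somata likewise, members of genes with at least 4 members, 22 genes chosen by function, and up to 4 of each gene list by fraction level. Others are marked where they appear. Some isoforms that this choice names are not reported here.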

Additional observations from a re-analysis of the deposited data

How the results depend on the processing

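Of 75 tested differences given for single isoforms, 48 kept their direction and their side of the threshold in every alternative, 23 lost the call in at least 1, 3 passed in an alternative alone and 2 turned, a value counting in each class it met. The 2 that turned were Cpe 2376 in polysomes against ribosome-free RNA with median ratios (-0.048) and App 2671 in the same comparison, from -0.83 without ribosome-free replicate 2 to 0.18 without ribosome-free replicate 1. With quantile normalization, called members numbered 74 higher and 48 lower in polysomes against ribosome-free RNA and 78 and 29 in monosomes against ribosome-free RNA. With median ratios they were 76 and 46, and 67 and 33. The median log2 fold changes of the members in these comparisons were 0.35 and 0.27 with quantile normalization, 0.37 and 0.36 with median ratios, 1.2 and 1.1 with a pseudocount of 0.1, 0.61 and 0.52 with 5, 0.69 and 0.66 with no filter, and 1.02 and 1.0 when only isoforms averaging 5 TPM or more were kept. In polysomes against monosomes, the median was 0.0077 with median ratios, and a constant prior variance gave 13 higher calls. In neuropil against somata, a pseudocount of 0.1 joined to a constant prior variance gave 3 higher and 6 lower calls. Over all 20393 tested isoforms it gave 205 and 258.

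With 1 library left out, the lone library of its group was assumed to vary like the others. Called members then ranged from 74 to 127 higher and 14 to 28 lower in polysomes against ribosome-free RNA, from 77 to 120 higher in monosomes against ribosome-free RNA, and from 3 to 28 higher and 12 to 33 lower in polysomes against monosomes. The medians ranged from 0.85 to 1.01 in polysomes against ribosome-free RNA, from -0.069 to 0 in polysomes against monosomes and from -0.046 to 0.12 in neuropil against somata. The cause of these moves was not tested. Members over 1 TPM in hippocampus ranged from 286 to 298.

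Libraries with the same replicate number did not deviate together (correlations of deviations from the group means 0.03, 0.003, 0.002 and -0.01). This cannot show whether libraries with the same number came from the same animal or gradient. With the replicate block, polysomes against monosomes gave 14 higher and 23 lower calls in place of 23 and 32, polysomes against ribosome-free RNA gave 121 and 27, and monosomes against ribosome-free RNA 115 and 15. Each group has 2 libraries and TPM keep no read counts, which limits the precision of every value.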
